A study of Mus musculus with 42 samples.

Results

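The genes described here are the nuclear-encoded subunits of respiratory complexes III, IV and V in mouse microglia, the resident macrophages of the brain. They were chosen by symbol, with earlier results of these data known, and the rule itself uses no measured value. It takes Cyc1 and every row whose symbol begins with Uqcr, with Cox and a subunit number from 4 to 8, or with Atp5. Symbols with a hyphen or a dot are left out. The rule found 48 symbols, of which 9 belong to complex III, 19 to complex IV and 20 to complex V. The count table for cortex and hippocampus held 45 of them among 53546 rows. The whole-brain table held 44 among 24421 rows, and 41 were in both under the same symbol. The tables partly use different names: Atp5f1 in whole brain and Atp5pb in the other table match the same gene. The symbols Atp5md, Atp5mpl and Cox6c2, a processed copy, were rows of the cortex and hippocampus table only. Whole brain held Usmg5, an older name of Atp5md, which the rule does not take. The symbols Atp5s and Atp5sl, now named Dmac2l and Dmac2 and not subunits of the core ATP synthase, were rows of the whole-brain table only. The cortex and hippocampus table held Dmac2l under its new name. The rule also takes Cox7a2l, described as a factor that joins respiratory complexes into supercomplexes. Whether it does so in these mice was not tested.

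Microglia were sorted as CD11b+CD45lo cells after a density gradient, and their RNA was sequenced in bulk, so that fewer cells of a type and less RNA per cell cannot be told apart. The 42 libraries came from C57BL/6 mice kept with a specific-pathogen-free microbiota (SPF) or germ-free (GF), some GF mice receiving acetate, a short-chain fatty acid that gut bacteria make, in the drinking water. The groups asked what the absence of bacteria changes in microglia, and what acetate given alone changes. Whole brain came from wild-type mice aged 6 to 12 weeks, SPF (n = 3) and GF (n = 5), whose library titles carry 8w and F. Cortex came from wild-type mice aged 16 weeks, SPF, GF and GF with acetate (n = 4 each). Hippocampus came from mice aged 16 weeks, wild type (SPF n = 4, GF n = 3, GF with acetate n = 4) and 5xFAD (n = 4, 3 and 4). Acetate lasted 8 weeks for GF wild-type and 5xFAD mice, and the protocol also names a GF group given acetate for 4 weeks, which the labels do not place by library. 5xFAD mice are a transgenic model of Alzheimer amyloid disease, in which the neuronal Thy1 promoter drives the transgenes. All mice in the acetate groups were germ-free, so acetate was not measured in mice with bacteria. Cortex and hippocampus libraries are named below as in the labels, by SPF, GF or GFA (GF with acetate), WT or FAD and the number of the animal. P-values measure the spread between these samples only.

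Complex III passes electrons from ubiquinol to cytochrome c, complex IV passes them from cytochrome c to oxygen, and both pump protons across the inner mitochondrial membrane. Complex V, the ATP synthase, lets the protons flow back through a rotating ring of c subunits and uses the turning of its central stalk to make ATP in the catalytic head. The mitochondrial genome encodes cytochrome b of complex III, the catalytic core of complex IV and the proton channel of complex V, while the nuclear genes described here encode nearly all other subunits. Several complex IV subunits exist in a general form and in an alternative form made mainly in heart and skeletal muscle, lung or testis. Microglia are known to shift between oxidative phosphorylation and glycolysis when they become activated.

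The sequences that the results turn on are those of an isoform pair of complex IV subunit VIa, a small subunit thought to adjust the enzyme's activity to the energy state. Cox6a2, on chromosome 7, is the form of heart and skeletal muscle, and Cox6a1, on chromosome 5, the general form. Their coding sequences, read from annotation release M21, have 294 and 339 bases. In an alignment of 290 bases 193 were identical (66.6%), and the longest identical run was 12 bases, so the pair differs along its whole length. Capitals mark each base that differs from the other gene, or has no partner in it. The whole coding sequence of Cox6a2 and bases 1 to 300 of Cox6a1 are shown.
Cox6a2: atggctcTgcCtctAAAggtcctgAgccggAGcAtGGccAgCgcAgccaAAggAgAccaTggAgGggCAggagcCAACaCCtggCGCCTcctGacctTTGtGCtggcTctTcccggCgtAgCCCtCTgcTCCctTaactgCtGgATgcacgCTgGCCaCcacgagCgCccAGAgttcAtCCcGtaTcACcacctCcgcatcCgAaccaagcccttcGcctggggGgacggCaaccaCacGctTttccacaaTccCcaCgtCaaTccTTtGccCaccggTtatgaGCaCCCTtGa
Cox6a1: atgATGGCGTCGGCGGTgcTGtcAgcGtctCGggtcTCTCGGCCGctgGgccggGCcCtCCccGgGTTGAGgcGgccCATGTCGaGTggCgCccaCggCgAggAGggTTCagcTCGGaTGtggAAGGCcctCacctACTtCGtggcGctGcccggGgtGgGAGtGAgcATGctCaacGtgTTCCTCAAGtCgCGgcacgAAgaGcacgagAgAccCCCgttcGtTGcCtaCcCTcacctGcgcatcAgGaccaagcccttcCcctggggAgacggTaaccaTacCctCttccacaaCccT

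Promoters were searched on both strands, from 250 bases before to 50 bases after the start of each gene in the RefSeq table on build GRCm38.p6, for 3 motifs known from genes of the respiratory chain. The core of the NRF1 site, GCGCNTGCG, was in 14 of 35 member genes with an entry (40.0%), against 1924 of 27025 genes in the table (7.12%). The ETS site bound by GABP, CCGGAAG, was in 11 of 35 (31.4%) against 2683 of 27025 (9.93%). The YY1 site, AAGATGGC, was in 4 of 35 (11.4%) against 862 of 27025 (3.19%). These shares describe letters in a window, not bound sites. Shown are the 250 bases before the start of Cox6a1, which with Uqcrc1 held the most NRF1 matches of the members, and of Uqcrh, the complex III gene with the smallest p in the comparisons below. Capitals mark the motif matches, 3 NRF1 matches on the 2 strands (an overlapping pair in the first capital run and 1 in the second) and 1 ETS match for Cox6a1, and 1 ETS match for Uqcrh. The Cox6a1 window is chr5:115348959-115349208 and the Uqcrh window chr4:116075071-116075320, both on the minus strand and written 5′ to 3′.
Cox6a1 promoter: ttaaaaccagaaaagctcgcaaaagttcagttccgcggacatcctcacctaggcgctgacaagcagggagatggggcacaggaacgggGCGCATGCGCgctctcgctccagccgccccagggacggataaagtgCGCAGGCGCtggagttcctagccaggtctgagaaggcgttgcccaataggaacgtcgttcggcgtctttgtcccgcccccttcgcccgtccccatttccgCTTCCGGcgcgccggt
Uqcrh promoter: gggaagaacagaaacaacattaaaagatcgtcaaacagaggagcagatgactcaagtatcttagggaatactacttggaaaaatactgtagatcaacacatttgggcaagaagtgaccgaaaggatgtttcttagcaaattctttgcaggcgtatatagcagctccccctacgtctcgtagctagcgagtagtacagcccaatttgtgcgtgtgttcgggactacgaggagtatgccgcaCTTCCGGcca

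Total counts per library ran from 19329304 to 25366393 in whole brain, from 15790383 to 23860490 in cortex and from 5743891 to 22532410 in hippocampus, where wild-type SPF4 and 5xFAD SPF_FAD_2142 were the shallowest. Levels are given as CPM, counts scaled by TMM to a common library size. The 10 microglial markers together took 40239 to 80776 CPM in each library. T and NK cell markers summed to at most 0.561 CPM and neuronal markers to at most 12.9 CPM, while oligodendrocyte markers took 139 to 202 CPM. Neutrophil markers reached 258 CPM in 5xFAD SPF_FAD_2153, 227 CPM in wild-type hippocampus GF_WT_532 and 173 CPM in 1 whole-brain GF library. The library labelled 5xFAD SPF_FAD_2152 had 13.2 CPM of Cst7, a gene of microglia at amyloid plaques, where the other 5xFAD libraries had 351 to 790 CPM and wild-type hippocampus 4.27 to 22.4 CPM. Clec7a (23.92 CPM), Itgax (9.06 CPM) and Lpl (35.9 CPM) in it also lay within the wild-type range, while App was at 190 CPM, within the range of the other 5xFAD libraries (189.8 to 253 CPM) and above the wild-type SPF libraries (139 to 158 CPM), although other wild-type hippocampus libraries reached 216 CPM. The microglial marker P2ry12 was at 6486 CPM in it, within the range of the wild-type SPF libraries (6029 to 7450 CPM). The other 5xFAD libraries had 3675 to 5279 CPM. Of these genes App alone lay away from the wild-type SPF libraries, and its range overlaps between the genotypes. Whether the label is right was not tested. The Cox6a2 difference between genotypes in SPF mice and the medians of all tested members that use this library are also given without it. Other values of the 5xFAD SPF group include it.

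All members of the 3 complexes together had between 0.28% and 0.36% of counts in the group means, and between 0.232% (cortex SPF1) and 0.396% (SPF_FAD_2142) in single libraries. Their summed level, in CPM, averaged 2881 ± 281 (SD, n = 4) in cortex SPF, 3034 ± 221 (n = 4) in cortex GF and 2892 ± 103 (n = 4) in cortex with acetate. In hippocampus it was 3170 ± 199 (n = 4), 2905 ± 183 (n = 3) and 3170 ± 306 (n = 4) in wild type, and 3463 ± 452 (n = 4), 3163 ± 174 (n = 3) and 3696 ± 310 (n = 4) in 5xFAD, for SPF, GF and acetate in turn. The acetate-treated 5xFAD group had the highest sum and cortex SPF the lowest of these 9 groups. In whole brain, counted and scaled apart, the sums were 3441 ± 97.0 (n = 3) in SPF and 3669 ± 228 (n = 5) in GF.

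Levels were compared between genes only per kilobase of transcript (CPM per kb, median over libraries). In cortex and hippocampus 37 members reached 10 CPM per kb, from 18.5 for Atp5g2 to 241 for Atp5b, a 13-fold range around a median of 95.4. Complex III was led by the small subunit Uqcrq (128), the core protein Uqcrc1 (113) and Uqcrb (111). Its other core protein Uqcrc2 was lowest (40.2), close to the Rieske iron-sulfur protein Uqcrfs1 (44.6), and cytochrome c1, Cyc1, stood at 59.97. In complex IV, Cox4i1, the general form of the subunit that binds ATP, was highest (196). Cox6a1 (161), Cox6b1 (160) and Cox8a (145) came next, Cox7a2 stood at 95.7 and Cox5a, the partner of Cox4 subunits in early assembly, at 48.6. In complex V the catalytic beta subunit Atp5b (241) led over the gamma subunit of the central stalk, Atp5c1 (144), and the alpha subunit Atp5a1 (132). These are levels of RNA and not numbers of subunits in the enzyme.

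**Figure D1:**
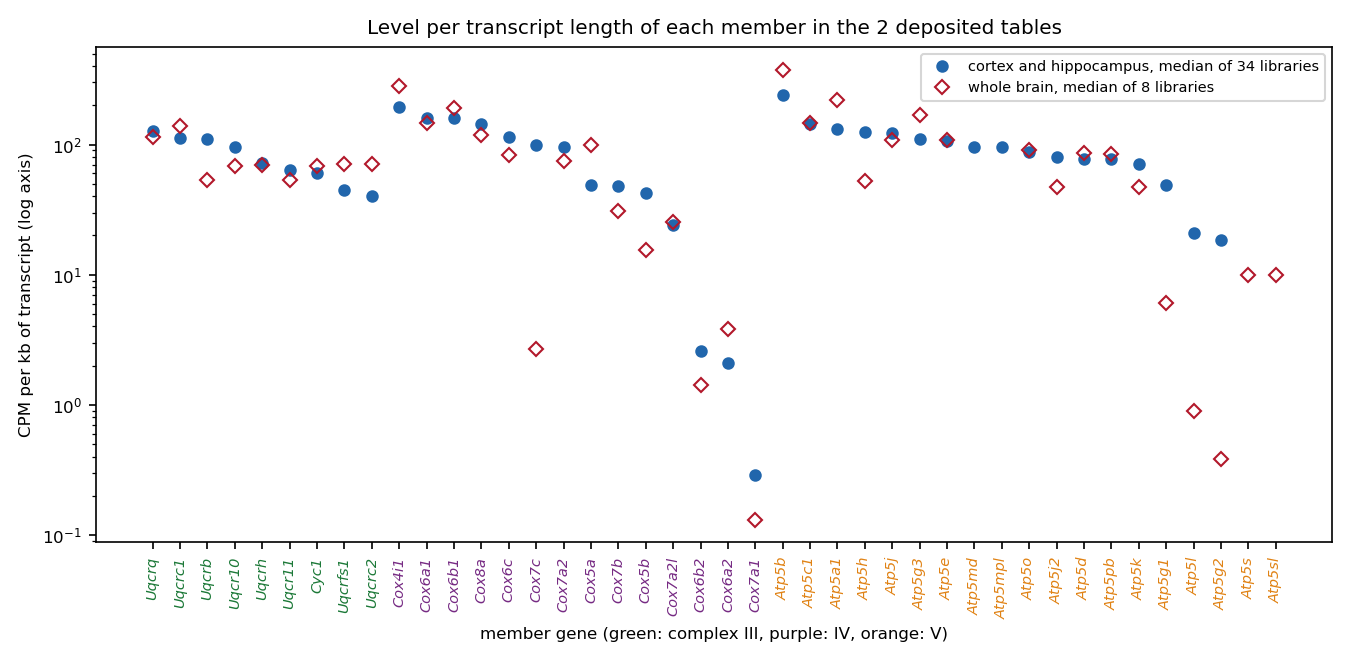
Level of each member with a median above 0 in CPM per kb of transcript on a log axis, as the median over the 34 cortex and hippocampus libraries and over the 8 whole-brain libraries, grouped by complex. Most general subunits lie near the median of 95.4 CPM per kb in cortex and hippocampus, the alternative isoforms of complex IV lie far below, and Cox7c, Atp5g2, Atp5l and Atp5g1 are much lower in the whole-brain table.

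Some members stood far apart between the tables. Cox7c had a median of 53.9 CPM in cortex and hippocampus and 1.45 CPM in whole brain, Atp5l 11.3 and 0.49 CPM, Atp5g2 8.17 and 0.17 CPM, Atp5g1 29.2 and 3.60 CPM. All have near-identical processed copies in the genome (at least 95% identity over at least 100 bases). Among members with at least 5 CPM in a table, the ratio of cortex and hippocampus to whole brain had a median of 0.90 (range 0.49 to 2.74) for the 21 with no such pseudogene and of 1.49 (0.92 to 48.2) for the 13 with 1 to 4. For Atp5l, with 9, it was 23. How each table treated reads of such copies was not tested, so counts of these genes are uncertain, and values of the tables set side by side are not compared.

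The c subunit of the ATP synthase ring is made from 3 genes that differ in the part removed on import into the mitochondrion. Of their summed level per kb, Atp5g3 made up a median of 61.8% in cortex and hippocampus, Atp5g1 27.8% and Atp5g2 10.1%. Over the 34 libraries Atp5g3 kept between 54.1% and 68.4%, so its lead held in each as counted. Counts of Atp5g1 and Atp5g2 are uncertain here too. Near-identical pseudogenes held 7.7% and 2.8% of the counts of gene and copies together. The shares also depend on the transcript lengths used, 596 bases for Atp5g1, 441 for Atp5g2 and 714 for Atp5g3. In whole brain, where the other ring genes are among those with uncertain counts, Atp5g3 made up 96.2%.

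Most alternative isoforms of complex IV were almost silent in microglia. Cox8c, the testis form of subunit VIII, had 0 counts in all 42 libraries. The testis form Cox7b2 had 1 count and the muscle form Cox8b 6 counts in all of cortex and hippocampus, and both had 0 in whole brain. Cox4i2, the lung form induced by low oxygen, had 38 counts in 10 of 34 libraries, 24 of them in 1 library, and 2 counts in whole brain. Cox7a1, the muscle form of subunit VIIa, had 109 counts in 25 of 34 libraries, at most 0.75 CPM. Cox6c2, a copy of Cox6c, had 35 counts in 16 of 34. Cox6b2, the testis form of subunit VIb, had 870 counts in 33 of 34 libraries and at most 3.74 CPM. Cox6a2 alone among them reached 10 CPM in any library, and it is described first.

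Cox6a2 was higher in hippocampal microglia of 5xFAD than of wild-type mice. In GF mice the wild-type libraries GF_WT_529, GF_WT_530 and GF_WT_532 had 0.102, 1.08 and 0.566 CPM (2, 19 and 11 counts) and the 5xFAD libraries GF_FAD_526, GF_FAD_527 and GF_FAD_531 had 11.1, 9.32 and 5.01 CPM. With acetate the wild-type libraries GFA_WT_518, GFA_WT_523, GFA_WT_524 and GFA_WT_525 had 0.776, 0.784, 2.13 and 1.34 CPM and the 5xFAD libraries GFA_FAD_519, GFA_FAD_520, GFA_FAD_521 and GFA_FAD_522 had 14.9, 14.6, 12.4 and 18.5 CPM. In both conditions every 5xFAD library lay above every wild-type library, with a wide gap. The mean rose from 0.583 ± 0.491 to 8.48 ± 3.12 CPM in GF mice (SD, n = 3 each; log2 3.86, SE 0.71, 14.5-fold, adjusted p = 0.0082). With acetate it rose from 1.26 ± 0.640 to 15.1 ± 2.54 CPM (n = 4 each; log2 3.57, SE 0.59, 11.9-fold, adjusted p = 0.0012). Without GF_WT_530 the GF difference was log2 4.65 (3.37 to 4.65 over the alternatives), and the 3 wild-type libraries hold 32 counts in all. The GF call was lost when only the groups compared were fitted (adjusted p = 0.061). These adjusted p-values, like all below, are from edgeR's quasi-likelihood test with Benjamini-Hochberg adjustment over all genes tested.

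In SPF mice the wild-type libraries had 0.994, 2.73, 1.996 and 0.843 CPM of Cox6a2. The 5xFAD libraries SPF_FAD_2140, SPF_FAD_2142 and SPF_FAD_2153 had 10.6, 14.8 and 7.77 CPM (202, 84 and 164 counts), and the library labelled 5xFAD SPF_FAD_2152 had 1.91 CPM (34 counts), within the wild-type range. The groups therefore overlapped through that library, the same that lay at wild-type levels of Cst7, Clec7a, Itgax and Lpl. With all libraries the difference missed the threshold (log2 2.37, SE 0.57, adjusted p = 0.058). Without the library labelled SPF_FAD_2152 it passed (log2 2.71, adjusted p = 0.0055), and without the shallow libraries SPF4 and SPF_FAD_2142 the difference was log2 1.84 (adjusted p = 0.38).

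**Figure D2:**
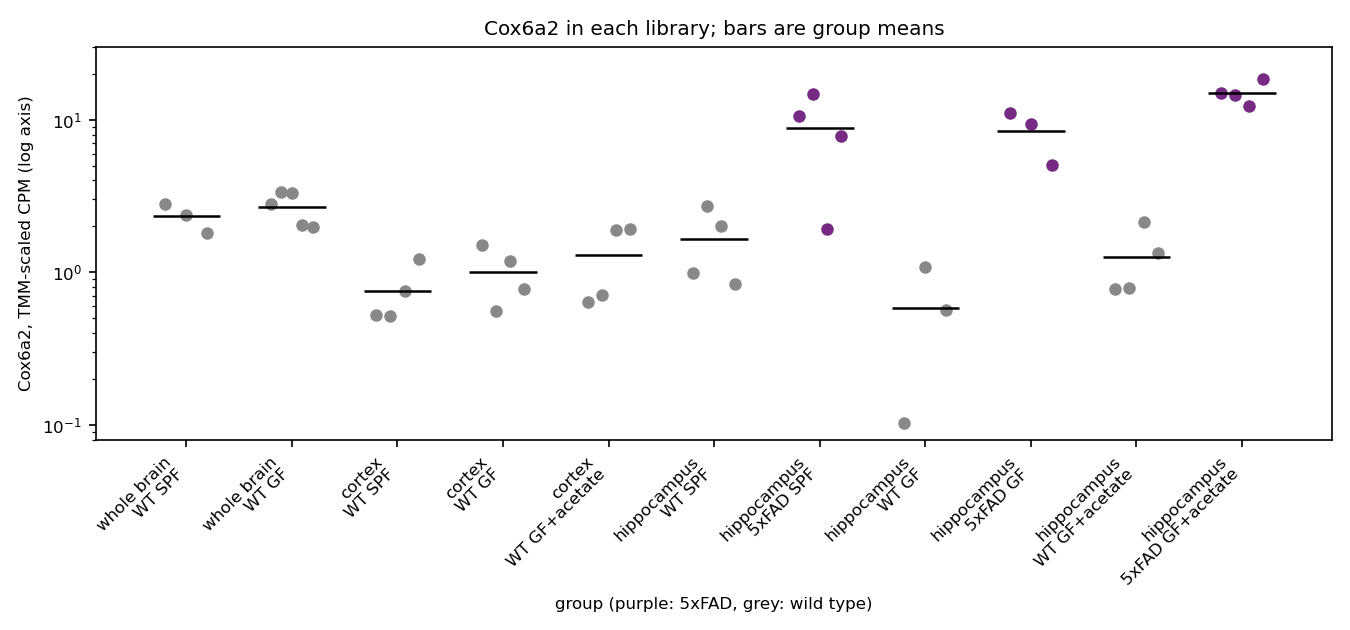
Level of Cox6a2 in CPM on a log axis in each of the 42 libraries, 1 point per library, by group, with a line at each group mean. The 5xFAD libraries lie between 5.01 and 18.5 CPM, except the library labelled SPF_FAD_2152 at 1.91 CPM, and no wild-type cortex or hippocampus library exceeds 2.73 CPM.

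Cortex libraries had Cox6a2 at 0.513 to 1.23 CPM in SPF, 0.561 to 1.51 CPM in GF and 0.634 to 1.92 CPM with acetate. Whole-brain libraries, scaled apart, had 1.81 to 2.82 CPM in SPF and 1.99 to 3.36 CPM in GF. As a share of the summed level per kb of Cox6a1 and Cox6a2, Cox6a2 made up a median of 8.35% (range 7.35 to 11.6) in acetate-treated 5xFAD hippocampus and 0.865% (0.699 to 2.35) in wild type. In GF mice the median was 6.98% (4.04 to 7.39) in 5xFAD and 0.421% (0.111 to 1.09) in wild type. The general form thus remained the main one in every library. Neither GF against SPF nor acetate against GF passed for Cox6a2 within wild type (log2 -1.51, adjusted p = 0.34, and 1.10, adjusted p = 0.53) or within 5xFAD (log2 -0.02, adjusted p = 1.0, and 0.82, adjusted p = 0.88), and neither did its interactions of genotype with these treatments (log2 1.49, adjusted p = 0.93, and -0.29, adjusted p = 1.0).

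Markers of other cells were compared beside this result in the hippocampus. Summed neuronal markers were 1.51 to 2.04 CPM in 5xFAD GF and 0.228 to 4.32 CPM in wild-type GF, and 0.569 to 2.52 CPM against 0.051 to 1.40 CPM with acetate. Border macrophage markers were 3.41 to 10.1 CPM against 1.25 to 9.31 CPM in GF, and 10.2 to 27.9 CPM against 0.067 to 8.76 CPM with acetate, where the groups did not overlap and Pf4 passed (log2 5.59, adjusted p = 0.02). The endothelial gene Flt1 also passed with acetate (log2 5.49, adjusted p = 0.0078), while summed endothelial markers overlapped. Neutrophil markers were at most 0.759 CPM in GF and acetate-treated 5xFAD libraries. Summed microglial markers were 47210 to 49270 CPM in acetate-treated 5xFAD and 54156 to 56802 CPM in wild type, and 40239 to 41596 CPM against 41973 to 44193 CPM in GF, without overlap in either. The microglial markers P2ry12 (log2 -0.76, adjusted p = 0.00024) and Cx3cr1 (log2 -0.39, adjusted p = 0.027) fell in acetate-treated 5xFAD. Their part in the Cox6a2 result was not tested.

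What 5xFAD changes was then asked for all 39 members tested in hippocampus. In GF mice 1 member passed, Cox6a2, where 0.756% of all genes tested were called and 0.557% were called higher. With acetate 2 passed, Cox6a2 and Cox4i1, both higher, where 2.51% of all genes were called and 1.83% were called higher. In SPF mice 0 passed by edgeR (4 at an unadjusted p under 0.05, and 1, Cox6a2, by DESeq2), where 0.568% of all genes were called. Counts of 1 and 2 among 39 are too small to set the members apart from these shares.

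Cox4i1, the subunit of complex IV through which ATP slows the enzyme, had 138, 182, 133 and 183 CPM in the acetate-treated wild-type libraries GFA_WT_518, GFA_WT_523, GFA_WT_524 and GFA_WT_525. The 5xFAD libraries GFA_FAD_519, GFA_FAD_520, GFA_FAD_521 and GFA_FAD_522 had 260, 272, 189 and 219 CPM, all above the wild type, although GFA_FAD_521 exceeded GFA_WT_525 by little. The means were 159 ± 27.1 and 235 ± 38.2 CPM (n = 4 each; log2 0.56, SE 0.14, 1.48-fold, adjusted p = 0.035). The call was lost without GF_WT_530 and GFA_WT_518, which had 17750 and 16607 genes detected. Among hippocampal libraries only the shallow SPF4 (17241) and SPF_FAD_2142 (17419) also had so few. Leaving out any of acetate libraries GFA_WT_518, GFA_FAD_519, GFA_FAD_520, GFA_FAD_522 or GFA_WT_524 lost the call as well (adjusted p up to 0.14). The call was also lost when only the groups compared were fitted (adjusted p = 0.074). The differences in SPF (log2 0.33, adjusted p = 0.42) and GF (log2 0.27, adjusted p = 0.62) did not pass, and the interaction of genotype with acetate against GF was log2 0.29 (adjusted p = 0.99).

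Uqcrh, the hinge protein of complex III next to cytochrome c1, had the smallest p of that complex. Its acetate-treated wild-type libraries GFA_WT_518, GFA_WT_523, GFA_WT_524 and GFA_WT_525 had 30.98, 45.4, 38.4 and 47.6 CPM and the 5xFAD libraries GFA_FAD_519, GFA_FAD_520, GFA_FAD_521 and GFA_FAD_522 had 64.1, 66.1, 50.1 and 59.96 CPM. The groups did not overlap, and the difference missed the threshold (log2 0.56, SE 0.17, adjusted p = 0.081). With acetate 5 members, Cox6a2, Cox4i1, Uqcrh, Atp5b and Cox6c, had every 5xFAD library above every wild-type library, against 5.59% of all genes. In GF mice these were Cox6a2, Cox6b1, Cox4i1 and Atp5h (4 of 39, against 9.11% of all genes).

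**Figure D3:**
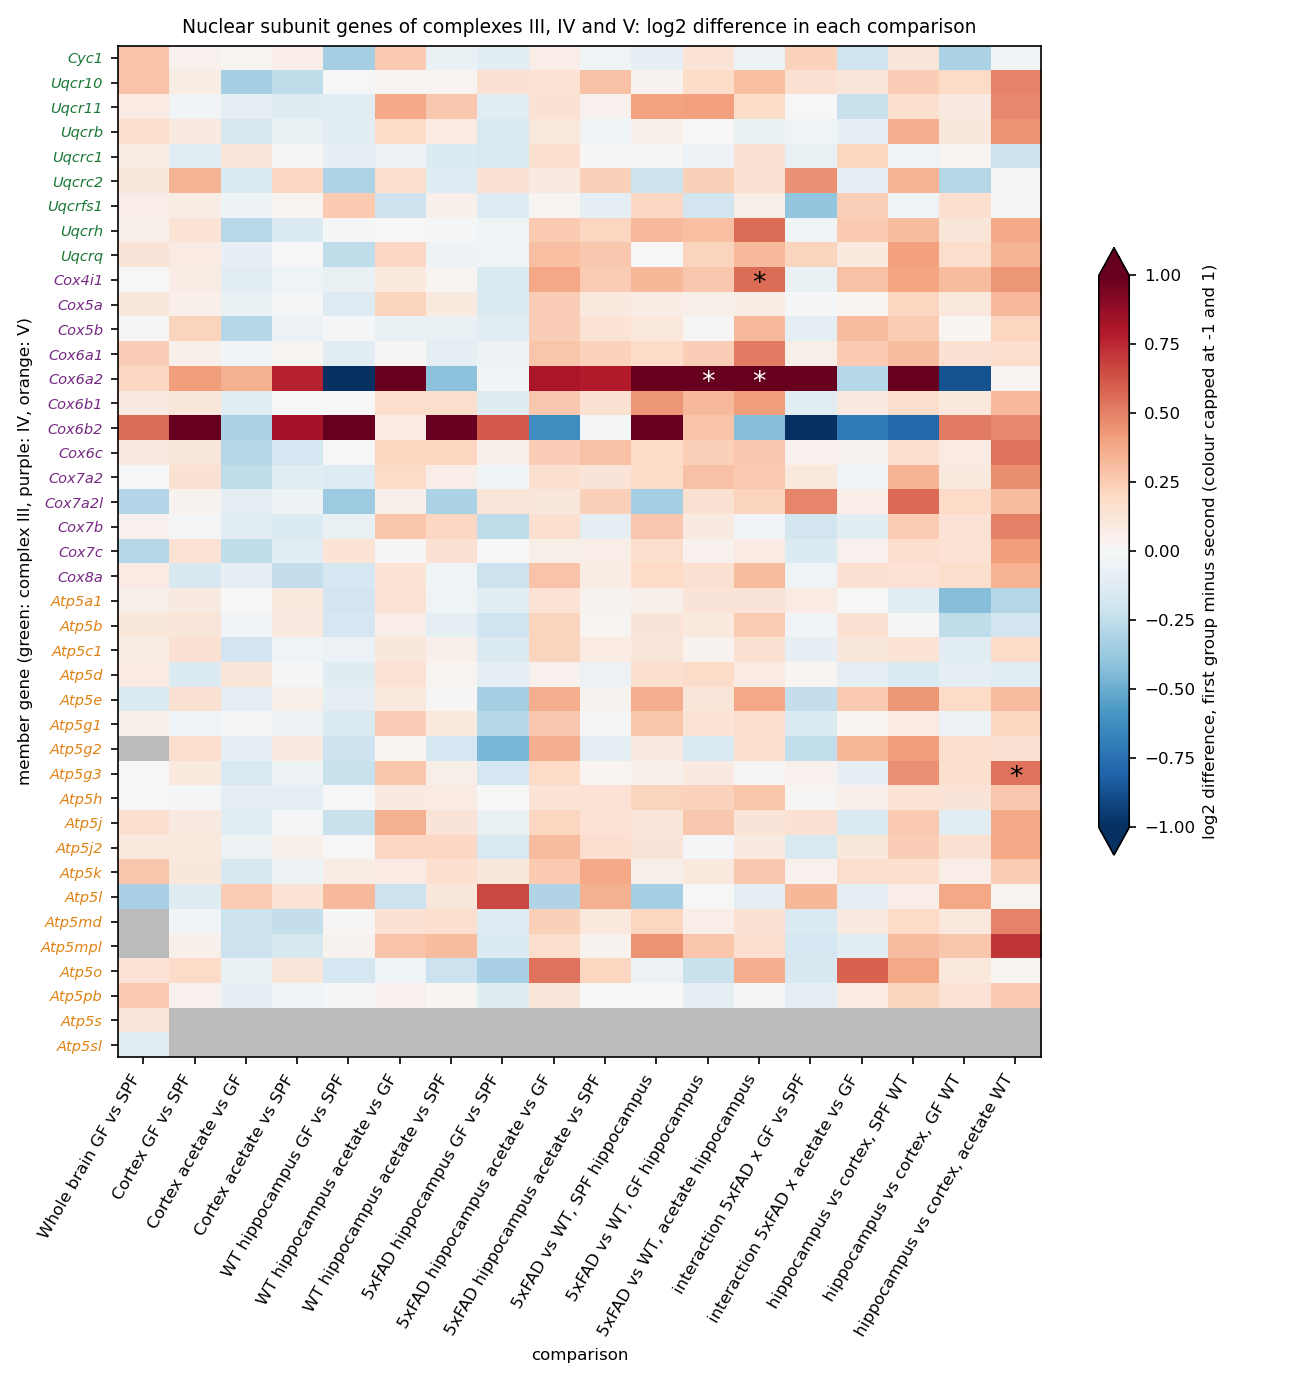
Fitted log2 difference of each tested member in each of the 18 comparisons, members in rows by complex and comparisons in columns, with red for higher and blue for lower in the first-named group grey where a member was not tested, and a star where the adjusted p was under 0.05. Stars stand at Cox6a2 and Cox4i1 for genotype and at Atp5g3 for region, and the region columns are red for small subunits and pale or blue for Atp5a1 and Atp5b.

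Most members leaned the same way in 5xFAD without passing. The median log2 difference of the 39 members was 0.13 in SPF, 0.14 in GF and 0.17 with acetate, with 33 above 0 each time, while the medians over all genes tested were 0.01, 0.00 and 0.00. With acetate complex IV had the highest median (0.27) against 0.16 for complex III and 0.15 for complex V. The SPF median was 0.22 without the library labelled SPF_FAD_2152 and 0.02 without SPF4 and SPF_FAD_2142, so its size turned on a few libraries. Of the ribosomal protein genes, also short and abundant transcripts, 16 of 83 were higher with acetate (median 0.54), while 0 of 83 passed by edgeR in SPF and GF (medians 0.24 each; 11 and 4 at an unadjusted p under 0.05). Their summed level with acetate was 7284 ± 884 CPM in 5xFAD and 5074 ± 974 CPM in wild type. Their part in the members' lean was not tested.

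What the absence of bacteria changes was asked in whole brain first. None of 38 members tested passed by edgeR (5 at an unadjusted p under 0.05; DESeq2 called 2, Atp5f1 and Cyc1), where 1.99% of all genes tested were called. Atp5f1, the b subunit of the peripheral stalk that holds the catalytic head still, came closest. It had 113, 115 and 119 CPM in the SPF libraries and 136, 133, 145, 144 and 138 CPM in the GF libraries. Every GF library lay above every SPF library (log2 0.27, SE 0.07, adjusted p = 0.061). Cyc1, the heme-bearing subunit that hands electrons to cytochrome c, behaved alike, with 75.3 to 96.2 CPM in SPF and 104 to 112 CPM in GF (log2 0.28, SE 0.09, adjusted p = 0.13). Atp5o was the third and last member with all GF above all SPF libraries (log2 0.14), so 3 of 38 did, against 5.83% of all genes. Cox7a2l was the only member with all GF libraries (22.5 to 28.2 CPM) below all SPF libraries (30.3 to 31.9 CPM; log2 -0.29, adjusted p = 0.27), 1 of 38 against 5.44% of all genes. Over the 38 members 32 lay above 0, with a median of log2 0.08 (all genes 0.00), while 55 of 72 ribosomal protein genes lay below 0 (median -0.20).

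In cortex none of 39 members passed by edgeR or DESeq2 between GF and SPF (1 at an unadjusted p under 0.05, background 1.71%), between acetate and GF (0 unadjusted, 0.973%) or between acetate and SPF (0 unadjusted, 0.364%). The single gene at an unadjusted p under 0.05 was Uqcrc2, one of the core proteins in the part of complex III that faces the matrix. It had 56.5, 65.2, 71.9 and 69.3 CPM in SPF, 86.2, 85.2, 93.1 and 68.8 CPM in GF and 88.0, 73.7, 72.8 and 69.6 CPM with acetate, so SPF and GF overlapped through 1 GF library (log2 0.34, SE 0.12, adjusted p = 0.17). Members had a median of log2 0.09 in GF against SPF (30 of 39 above 0) and of -0.09 with acetate against GF (6 of 39 above 0), while the medians of all genes tested were 0.00 and -0.01. Short genes in general lay the same way with acetate: all genes under 1000 bases had a median of -0.11 with 34.8% above 0, and the 29 members under 1000 bases had -0.11. In GF against SPF these medians were 0.07 and 0.09. These comparisons share the GF libraries. The members' median of GF against SPF turned to -0.04 without cortex SPF1. That of acetate against GF ran from -0.147 to -0.034 over the alternatives, nearest 0 without cortex GFA_WT_518. The median of acetate against SPF was -0.04 (14 of 39 above 0, between -0.14 and 0.02 over the alternatives).

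Hippocampus gave no call either. In wild type none of 39 members passed by edgeR or DESeq2 for GF against SPF (3 at an unadjusted p under 0.05, background 0.727%), acetate against GF (1 unadjusted, 0.492%) or acetate against SPF (1 unadjusted, 0.123%). In 5xFAD none passed by edgeR for GF against SPF (1 unadjusted, 1.82%), acetate against GF (3 unadjusted, 0.082%) or acetate against SPF (1 unadjusted, 0.0527%). DESeq2 called 0, 1 and 0 members there, the 1 being Atp5o, the subunit that ties the peripheral stalk to the head. Its GF libraries had 47.2, 39.0 and 31.5 CPM and its acetate libraries 59.0, 69.4, 44.5 and 58.0 CPM, which overlap (edgeR log2 0.54, adjusted p = 0.28).

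The direction in hippocampus was nevertheless shared by most members. GF against SPF had a median of log2 -0.09 in wild type and -0.11 in 5xFAD, with 9 of 39 above 0 each time. Acetate against GF had a median of 0.13 in wild type (34 of 39 above 0) and 0.21 in 5xFAD (37 of 39), where 8 members had every acetate library above every GF library (Atp5j2, Atp5b, Cox6c, Atp5c1, Cox6a2, Atp5md, Atp5pb and Atp5h) against 6.6% of all genes tested. Acetate against SPF stood at 0.05 (25 of 39) and 0.10 (31 of 39). Without the library labelled SPF_FAD_2152 the 5xFAD medians were -0.166 for GF against SPF and 0.028 for acetate against SPF. Both GF comparisons of a genotype share its GF libraries, and 3 GF libraries stand behind each value. Over the alternatives the medians of GF against SPF ran from -0.157 to -0.03 in wild type and from -0.166 to -0.037 in 5xFAD. Those of acetate against GF ran from 0.075 to 0.194 and from 0.13 to 0.27. Of all genes under 1000 bases, 53.2% in wild type and 45.1% in 5xFAD lay above 0 for GF against SPF (medians 0.04 and -0.06). For acetate against GF 48.7% and 55.0% did (medians -0.01 and 0.06).

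**Figure D4:**
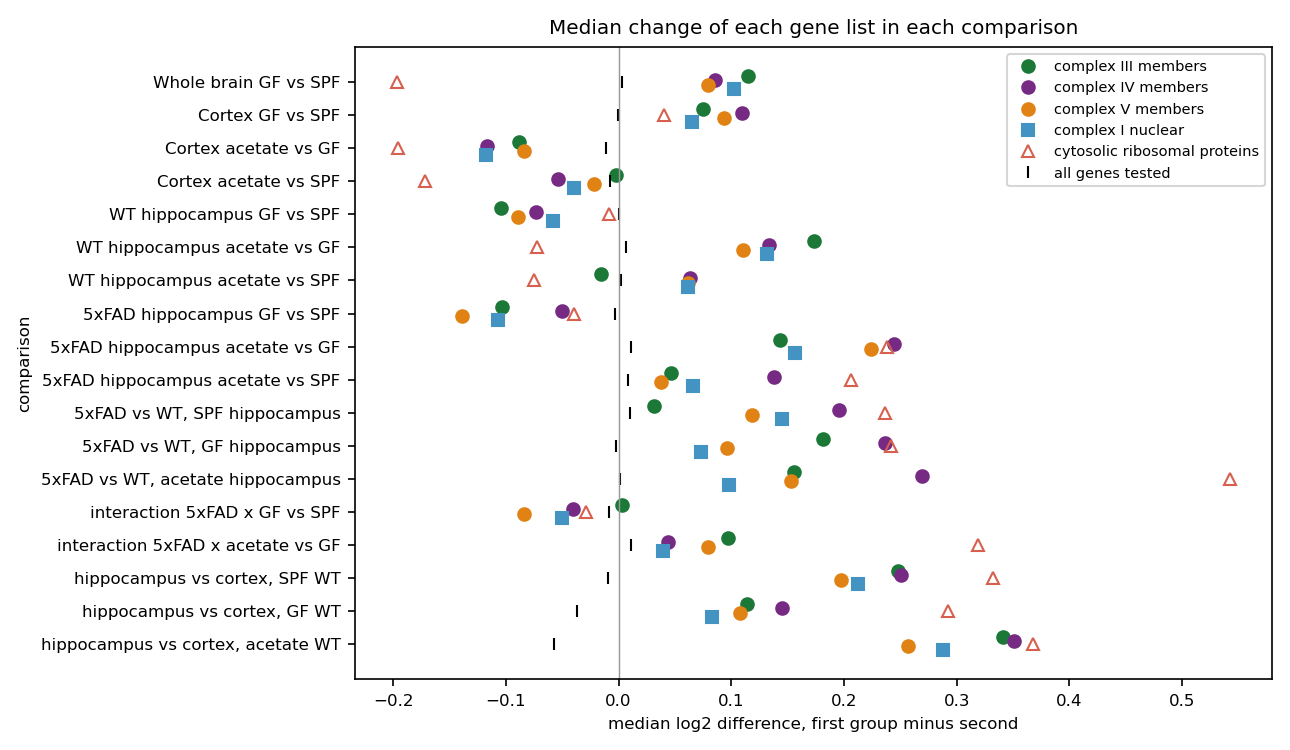
Median fitted log2 difference in each comparison for the members of complexes III, IV and V, the nuclear genes of complex I, the cytosolic ribosomal protein genes and all genes tested. The members of all 3 complexes lie below 0 for GF against SPF in hippocampus and highest for hippocampus against cortex with acetate (0.34, 0.35 and 0.26 for III, IV and V), and the ribosomal protein genes are highest for 5xFAD against wild type with acetate (0.54).

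Whether the response to bacteria or acetate depends on genotype was tested as an interaction in hippocampus. No member and no gene at all passed for GF against SPF (0% of genes called; 1 member at an unadjusted p under 0.05) or for acetate against GF (0%; 1 unadjusted), and DESeq2 called 0 members in both. Uqcrc2 (log2 0.46, SE 0.19, adjusted p = 0.85) and Atp5o (log2 0.59, adjusted p = 0.91) were the genes at an unadjusted p under 0.05. Member medians were -0.03 and 0.06, and each changed sign over the alternatives. The first was -0.095 without the library labelled SPF_FAD_2152.

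Hippocampus was compared with cortex within wild type, with the animal as a block since 11 animals gave both regions. With acetate 1 member passed, Atp5g3, the main c-ring gene, where 2.31% of all genes tested were called and 0.667% were called higher. Its cortex libraries GFA_WT_518, GFA_WT_523, GFA_WT_524 and GFA_WT_525 had 59.0, 66.5, 65.6 and 65.0 CPM, and the hippocampus libraries of the same animals had 78.0, 106, 91.9 and 98.5 CPM. All hippocampus libraries lay above all cortex libraries (64.0 ± 3.40 against 93.6 ± 11.9 CPM, n = 4 each; log2 0.54, SE 0.10, 1.45-fold, adjusted p = 0.019). The call was lost without animal GFA_WT_518, GFA_WT_523 or GFA_WT_525 in either region (adjusted p up to 0.11), without the animal block (adjusted p = 0.063) and when only the groups compared were fitted (adjusted p = 0.08). In SPF mice Atp5g3 had 45.5, 70.7, 73.1 and 75.6 CPM in cortex and 68.7, 105, 99.7 and 87.0 CPM in hippocampus, higher in hippocampus in each animal (log2 0.45, SE 0.10, adjusted p = 0.055). In GF mice it differed by log2 0.16 (adjusted p = 0.65).

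No other member passed between regions. In SPF mice 0 passed by edgeR (9 at an unadjusted p under 0.05, all higher in hippocampus, against 2325 of all 16793 genes), where 0.697% of all genes were called. DESeq2 called 5 members there, among 913 genes. In GF mice 0 passed (4 unadjusted, against 1983 of all genes), where 0.0357% were called by edgeR, and DESeq2 called 1 member among 512 genes. With acetate 21 of 39 members had an unadjusted p under 0.05, 19 of them higher in hippocampus, against 2999 of 16793 genes tested, and DESeq2 called 12 members among 1422 genes. There 8 members had every hippocampus library above every cortex library, against 4.56% of all genes, and 1, Atp5b, had all below, against 6.21% of all genes. Medians of the members were log2 0.22 in SPF, 0.11 in GF and 0.32 with acetate, where those of all genes tested were -0.01, -0.04 and -0.06.

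The region difference was not even along the enzymes. With acetate all 13 complex IV genes lay above 0 (median 0.35) and all 5 small subunits of complex III did (median 0.45), whereas its larger subunits Uqcrc1 (log2 -0.21), Cyc1 (-0.04), Uqcrfs1 (-0.01) and Uqcrc2 (0.01) did not pass and stood near or below 0. In complex V the catalytic head genes Atp5a1 and Atp5b lay lower in hippocampus with acetate, without passing. Atp5a1, the alpha subunit, had 400, 378, 347 and 346 CPM in cortex GFA_WT_518, GFA_WT_523, GFA_WT_524 and GFA_WT_525 and 362, 326, 241 and 288 CPM in hippocampus, lower in each animal (log2 -0.29, SE 0.09, adjusted p = 0.10). Atp5b, the beta subunit, had 552, 475, 474 and 456 CPM against 453, 455, 390 and 427 CPM (log2 -0.18, SE 0.08, adjusted p = 0.26). In GF mice Atp5a1 also lay lower, with 365, 372, 386 and 340 CPM in cortex and 276, 242 and 302 CPM in hippocampus (log2 -0.42, adjusted p = 0.11), and DESeq2 called it. In SPF mice Atp5b did not lie lower throughout. It had 459, 464, 481 and 432 CPM in cortex SPF1 to SPF4 and 404, 511, 447 and 496 CPM in hippocampus. There Atp5a1 had 401, 328, 335 and 308 CPM against 331, 290, 335 and 308 CPM.

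Transcript length went with this split. With acetate 28 of 29 members with a transcript under 1000 bases lay above 0 (median log2 0.35) and 5 of 10 longer members did (median 0.00). Across the 39 members Spearman's rho of the log2 difference with length was -0.54, and it was -0.46 in GF and -0.24 in SPF. All genes tested had the same slant: 63.2% of 2713 genes under 1000 bases lay above 0 (median 0.19) and 41.3% of longer genes did (median -0.09). The ribosomal protein genes, with a median of 0.37 and 4 of 83 called higher, lay the same way. Neuronal markers summed to 1.27 to 6.86 CPM in cortex and 0.051 to 1.40 CPM in hippocampus with acetate, where Snap25 (log2 -5.99, adjusted p = 0.043) and the microglial genes Csf1r (log2 -0.43, adjusted p = 0.0056) and Tmem119 (log2 -0.37, adjusted p = 0.027) were lower in hippocampus. The part of length and of these markers in the region difference was not tested, and rho describes genes of shared libraries rather than replicates.

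**Figure D5:**
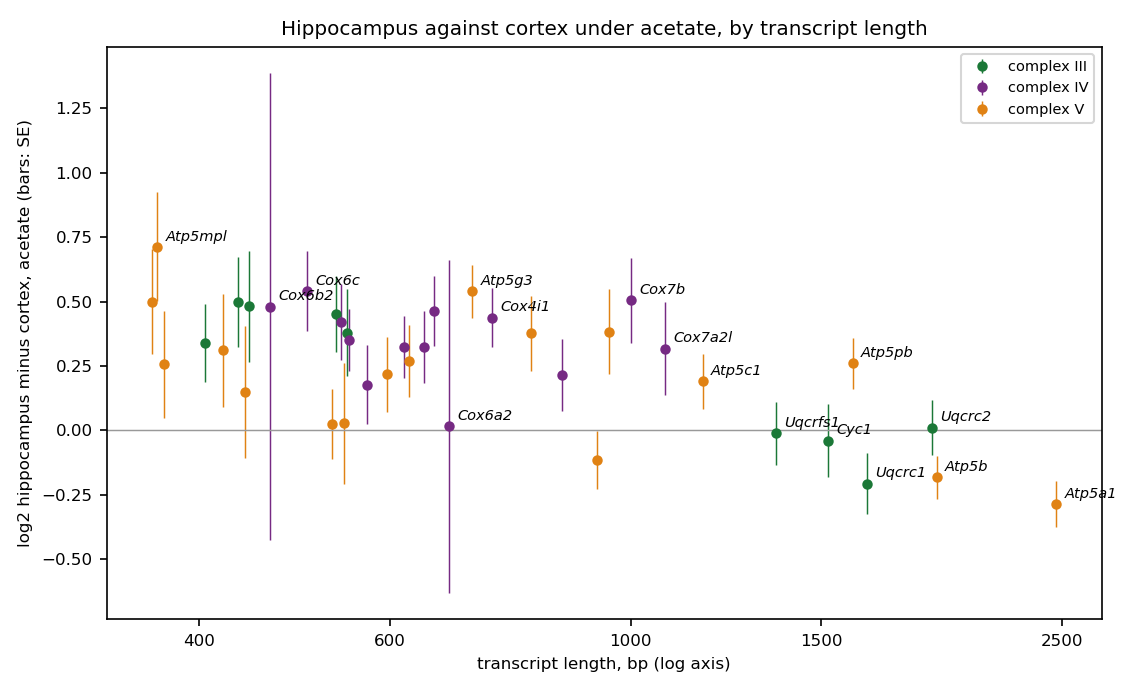
Fitted log2 difference between hippocampus and cortex in acetate-treated wild-type mice for each of the 39 tested members against the length of its transcript in bases on a log axis, coloured by complex, with bars of 1 standard error. Nearly all members under 1000 bases lie above 0, while Atp5a1, Atp5b and Uqcrc1 lie below.

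The other genes of oxidative phosphorylation, from lists set beside the members, were mostly without calls. Of 37 nuclear genes of complex I, the entry of NADH electrons, 0 passed by edgeR between microbiota or treatment groups or regions (at most 15 at an unadjusted p under 0.05 in a comparison), and 1, Ndufa1, was higher in 5xFAD in GF (log2 1.26, adjusted p = 0.03) and with acetate (log2 1.10, adjusted p = 0.012). Their median was 0.29 for hippocampus against cortex with acetate and 0.10 for 5xFAD against wild type with acetate. Of 8 mitochondrially encoded genes tested, mt-Nd5 was higher in 5xFAD in GF (log2 0.66, adjusted p = 0.012) and with acetate (log2 0.62, adjusted p = 0.002). The complex I genes mt-Nd2 (log2 0.62) and mt-Nd4 (log2 0.55) were higher in hippocampus than cortex with acetate. These genes were not analysed in whole brain.

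None of 4 complex II genes and none of the 6, 26 and 5 assembly factors tested for complexes III, IV and V passed in any comparison by edgeR. At an unadjusted p under 0.05 a comparison had at most 2 genes of complex II and 2, 4 and 1 of the assembly factors. Cytochrome c itself, Cycs, and 3 further genes listed with it had 0 calls by edgeR (at most 2 at an unadjusted p under 0.05). These were Ndufa4, a complex IV subunit outside the rule, Atpif1, and Dmac2l in cortex and hippocampus or Usmg5 in whole brain. Atpif1 is the inhibitor that stops the ATP synthase from running backwards. Atpif1 averaged 107 ± 16.2 CPM in acetate-treated wild-type hippocampus and 78.9 ± 13.4 CPM in cortex (log2 0.45, SE 0.13, adjusted p = 0.074). Of 6 carriers of ADP, ATP and phosphate, Slc25a4 was higher in acetate-treated 5xFAD than wild type (log2 0.53, adjusted p = 0.013). Of 10 transcriptional regulators of these genes, Gabpb1 was lower in GF whole brain (log2 -0.38, adjusted p = 0.032) and Pprc1 lower in hippocampus than cortex with acetate (log2 -0.50, adjusted p = 0.042).

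The always-named members without a call by edgeR in the main fits had the following group means over the 9 cortex and hippocampus groups. Uqcrc1 group means ran from 166 to 192 CPM, Cyc1 from 78.6 to 100 CPM and Uqcrfs1 from 57.9 to 68.7 CPM. Cox5a ran from 28.6 to 38.0 CPM, Cox7a2 from 48.7 to 81.4 CPM, Cox8a from 66.2 to 104 CPM and Cox6a1 from 79.5 to 131 CPM, these 4 each highest in acetate-treated 5xFAD hippocampus. In none of the 18 comparisons did any of these 7 pass by edgeR in the main fits. DESeq2 called Cyc1 in whole brain, and Cox7a2 and Cox8a between regions with acetate. The filter of a mean of at least 5 CPM also called Cox7a2 there. Among the ring genes Atp5g1 ran from 26.96 to 36.5 CPM and Atp5g2 from 6.95 to 9.94 CPM, both without a call.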

How the data were processed

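Bulk RNA of sorted microglia was sequenced in 42 libraries on a HiSeq 1000, per the labels' protocols. The authors deposited raw read counts for each gene, made with STAR 2.5.2b and featureCounts 1.5.1 on a build given as GRCh38, per the submitters' processing notes; this build is human although the gene symbols are murine, and the counts are therefore given without coordinates. Every column was mapped to a sample by its label (0 left over).

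Whole brain, cortex and hippocampus were each fitted with all their groups, and the regions with the animal as a block, in R 4.3.3 with edgeR 4.0.16 (filterByExpr, minimum count 10, TMM, robust quasi-likelihood test, limma 3.58.1). P-values are two-sided and carry the Benjamini-Hochberg adjustment across every tested gene, with 0.05 as the threshold. The filter passed 38 of 44 members in whole brain and 39 of 45 elsewhere; those left out were the near-silent isoforms and, in whole brain, Atp5g2. Levels are TMM-scaled CPM, per kb by the shortest principal transcript of annotation release M21. Cortex and hippocampus were scaled together. Fits were tested on simulated data. All 48 symbols matched that release, and 35 genes had a RefSeq promoter entry.

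Alternatives were DESeq2 1.42.0, RLE size factors, no filter, a mean of at least 5 CPM, each replicate left out, a fit of only the groups compared, the block added or removed, and fits without doubted libraries. Counts of 61 same-group library pairs differed by a chi-square of 10.1 to 60.2 per degree of freedom, so none of these pairs repeated the same counts. Libraries of different groups were not compared in this way, so a repeat under another group label was not tested. Residuals of the regions of 1 animal correlated at 0.028 to 0.114 across genes; the pairing comes from the animal numbers in the labels.

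The members and gene lists were chosen with earlier results of these data known. Values in every library are given for members called in a comparison and for the tested member with the smallest p of a complex without a call; the core subunits, ring genes, inhibitor and alternative isoforms are always named. Members singled out beyond this rule were chosen after their values were seen.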

Additional observations from a re-analysis of the deposited data

Results flagged for a closer look

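Some of the members, not all, were examined for a library far from the rest of its group. In cortex SPF, library 1 stood apart from the other 3 in 2 of these members. Cox4i1 was at 95.2 CPM in cortex SPF1 and at 126 to 132 CPM in the others, and Atp5g3 was at 45.5 CPM in cortex SPF1 and at 70.7 to 75.6 CPM in the others. Of 48 groups of values examined in this way, these 2 held a library far from the rest, and chance alone gives about 1 in 20 groups. The same library turned the sign of the cortex GF against SPF median, as given in the results. Cortex SPF1 was also the lowest of its group for Atp5e, Atp5k, Cox6b1, Cox7b and Uqcrh, among other members, and for the summed ribosomal protein genes. It was the highest of its group for Atp5a1 and Uqcrc1. Its part in these values was not tested further.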

How the results depend on the processing

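Counts of called members kept within 1.5 times in 246 of 281 alternatives and moved in 35, in 8 of 18 comparisons; no fitted log2 difference of a named member reversed a call, 16 fell below the threshold and 28 rose above it, of 5019. DESeq2 called 2 members in whole brain, 1 for 5xFAD acetate against GF, 1 for 5xFAD against wild type in SPF, and 5, 1 and 12 between regions in SPF, GF and acetate. No filter gave 1 (5xFAD against wild type in SPF), 1 (regions in GF, Atp5a1) and 4 (regions in acetate). A mean of at least 5 CPM gave 1 in whole brain, 1 for 5xFAD in SPF, and 1 and 5 between regions in SPF and acetate. Fitting only the groups compared gave 0 for 5xFAD in GF, 1 for 5xFAD with acetate, and 1 and 0 between regions in SPF and acetate. Without GF_WT_530 and GFA_WT_518 1 member was called for 5xFAD in SPF and 1 with acetate, and without the library labelled SPF_FAD_2152 1 in SPF, Cox6a2 each time. Leaving out each replicate gave 0 to 1 calls for 5xFAD in SPF, 1 to 2 with acetate, and 0 to 2 between regions in acetate. Over all genes DESeq2 called 638 in whole brain, 317 for 5xFAD in SPF and 1422 between regions in acetate, where edgeR called 226, 97 and 388. The cause was not tested.

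The replicate block of shared numbers in whole brain gave 0 members, as without it. Same-numbered libraries there correlated at -0.037 to -0.003. Cortex and hippocampus libraries paired by animal number correlated at only 0.028 to 0.114. The check therefore cannot decide whether the whole-brain numbers pair libraries. Without the animal block 0, 0 and 0 members were called between regions. Medians kept their sign in all alternatives in 12 of 18 comparisons; the others were the 2 interactions, cortex GF against SPF (-0.037 to 0.143) and acetate against SPF (-0.136 to 0.024), wild-type hippocampus acetate against SPF (-0.034 to 0.111) and the regions in GF (-0.037 to 0.188). Cox6a2 was called in 13 of 14 alternatives in GF (adjusted p 2.3e-06 to 0.061), in 16 of 16 with acetate (2.2e-08 to 0.0072) and in 6 of 16 in SPF (0.0021 to 0.38). Cox4i1 was called in 9 of 16 and Atp5g3 in 8 of 16. Depth limits the isoforms: in wild-type GF hippocampus Cox6a2 rests on 32 counts in 3 libraries.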
